A study of Mus musculus with 117 samples.

Results

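The regions described here were stretches of mouse hepatocyte chromatin that carried state 4 in some inbred strains and state 14 in the others. Chromatin immunoprecipitation sequencing (ChIP-seq), which reads the DNA bound to a modified histone, was done on hepatocytes, the cells that carry most liver metabolism, of female mice aged 12 weeks. Of the 9 strains, CAST/EiJ, PWK/PhJ and WSB/EiJ are wild-derived, and the laboratory strains are 129S1/SvImJ, A/J, C57BL/6J, DBA/2J, NOD/ShiLtJ and NZO/HlLtJ. The labels give no treatment or engineered allele for any strain. Each strain had 13 libraries, which were H3K4me1, H3K4me3, H3K27ac and H3K27me3 from 3 mice each and 1 input, and the deposited data gave 1 segmentation per strain that gives each 200-bp bin 1 of 14 state numbers.

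Members were chosen by the state numbers themselves. A bin on chromosomes 1 to 19 was a member where all 9 strains had state 4 or state 14 and each of these states was present in at least 3 strains, and adjacent bins with the same strain pattern were merged to a region. This gave 164741 of 12313718 autosomal bins (1.34%, 33.0 Mb) in 69503 regions. They made up 17.5% of the 943728 bins with state 4 in at least 1 strain and 32.8% of the 502425 bins in which states 4 and 14 both occurred and no other did. Just inside the limit, 56496 bins had 3 strains in state 4 and 31141 had 6. Just outside it, 86303 bins had 2 strains in state 4 and 29737 had 7. Because the states chose the members, their number, length and strain patterns are given as a description, without a test.

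A chromatin state is a recurring combination of histone marks that a segmentation model assigns to each bin. Of the marks studied, H3K4me3 is known from active gene starts, H3K4me1 and H3K27ac from enhancers and H3K27me3 from genes silenced by Polycomb complexes. Which of these marks each state number holds is not given in the sources used here, so a number is used only as a name: state 14 is the state that covers most of the genome, and states 1, 2 and 3 are summed below because earlier results of these data placed them at gene ends. Enhancers lie mostly outside gene starts, can act over long distances and vary more between individuals and strains than gene starts do.

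The labelled cell type was set beside marker genes at gene ends, taken as the bins within 1 kb of either end of a gene. Since states 1, 2 and 3 were picked with results at gene ends known, these shares describe the lists and are no independent check of the label. Of the gene-end bins of 20 hepatocyte markers such as Alb and Apoa1, 74.4% ± 2.36 were in state 1, 2 or 3 and 5.05% ± 1.63 in state 14 (SD, n = 9 strains). The same states held 2.45% ± 0.151 of the gene-end bins of 20 neuronal genes, 6.61% ± 1.99 for 11 Kupffer cell and macrophage markers, 4.51% ± 0.975 for 15 lymphocyte markers, 4.47% ± 1.35 for 14 stellate cell and fibroblast markers, 16.7% ± 2.19 for 10 bile duct markers and 18.8% ± 4.56 for 15 endothelial markers. The labels name hepatocytes, and what share of other liver cells was present is not given. In such bulk samples, fewer cells of a type and less signal per cell cannot be told apart.

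The reference sequence before start sites that lay in a member shows what the few members at gene starts look like. Of 20084 start sites of protein-coding genes in RefSeq (GRCm38.p6, the same coordinates as mm10), 115 lay in a member bin. Each line below gives the 250 bases before such a start site, 5′ to 3′ on the gene's strand. Acacb and Eng are shown because they belong to the fatty acid and endothelial gene lists used below, and Adh7, Mylk and Smim14 because they hold a searched motif, which is in capitals. Acacb encodes acetyl-CoA carboxylase beta, which regulates fatty acid oxidation, Eng the endothelial co-receptor endoglin, Adh7 an alcohol dehydrogenase, Mylk myosin light chain kinase and Smim14 a small membrane protein. 
Acacb (chr5:114165268-114165517, plus strand): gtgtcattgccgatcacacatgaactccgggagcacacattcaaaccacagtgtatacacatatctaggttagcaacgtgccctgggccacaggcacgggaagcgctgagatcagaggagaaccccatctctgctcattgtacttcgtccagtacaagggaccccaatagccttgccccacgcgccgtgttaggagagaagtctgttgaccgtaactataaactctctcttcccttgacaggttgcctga
Eng (chr2:32646345-32646594, plus strand): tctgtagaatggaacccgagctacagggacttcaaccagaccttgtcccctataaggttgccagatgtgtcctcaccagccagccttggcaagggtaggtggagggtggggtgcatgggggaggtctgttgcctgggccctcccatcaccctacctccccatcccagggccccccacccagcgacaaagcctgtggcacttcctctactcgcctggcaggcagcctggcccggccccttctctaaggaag
Adh7 (chr3:138217523-138217772, plus strand): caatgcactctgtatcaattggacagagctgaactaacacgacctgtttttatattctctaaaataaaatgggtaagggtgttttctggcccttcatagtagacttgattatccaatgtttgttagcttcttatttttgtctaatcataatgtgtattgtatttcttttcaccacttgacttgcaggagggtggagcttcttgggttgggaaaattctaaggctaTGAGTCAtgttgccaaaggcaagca
Mylk (chr16:34784700-34784949, plus strand): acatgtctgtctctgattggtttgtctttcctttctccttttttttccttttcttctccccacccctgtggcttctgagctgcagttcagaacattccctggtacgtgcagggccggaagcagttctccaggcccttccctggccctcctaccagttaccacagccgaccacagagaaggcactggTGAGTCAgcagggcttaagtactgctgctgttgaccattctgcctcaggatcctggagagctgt
Smim14 (chr5:65479878-65480127, minus strand): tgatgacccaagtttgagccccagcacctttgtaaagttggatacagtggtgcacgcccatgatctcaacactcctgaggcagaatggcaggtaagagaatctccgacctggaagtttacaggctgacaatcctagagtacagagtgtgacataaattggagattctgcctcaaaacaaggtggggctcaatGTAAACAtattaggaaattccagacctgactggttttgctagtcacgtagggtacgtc

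These start sites lay in regions with different strain patterns. The 600-bp region at the Acacb start, chr5:114165201-114165800, was in state 4 in C57BL/6J, CAST/EiJ and NZO/HlLtJ and in state 14 in the other 6 strains. The 400-bp region at the Eng start, chr2:32646201-32646600, was in state 4 in 129S1/SvImJ, C57BL/6J, CAST/EiJ, DBA/2J and NZO/HlLtJ. At Adh7, chr3:138217401-138218000 was in state 14 in exactly the wild-derived strains, CAST/EiJ, PWK/PhJ and WSB/EiJ. At Mylk, the single bin chr16:34784801-34785000 was in state 4 in C57BL/6J, NZO/HlLtJ and WSB/EiJ. At Smim14, chr5:65479601-65480000 was in state 14 in DBA/2J, NOD/ShiLtJ, NZO/HlLtJ and PWK/PhJ and in state 4 in the other 5.

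Start sites in members had few CpG dinucleotides. Over the 300 bases from 250 before to 50 after the start, the median ratio of observed to expected CpG was 0.219 for the 115 start sites in members, 0.1995 for the 43 in bins with state 4 in all 9 strains and 0.586 for all 20084. Median GC content was 53.3%, 55.7% and 57%. The AP-1 motif TGANTCA occurred on either strand in 16 of the 115 windows (13.9%), against 7.06% of all windows. It began 25 bases before the start of Adh7 and 64 bases before that of Mylk, and neighbouring start sites of Tmem54 and of Ccdc33 each shared 1 match. The FOXA motif TGTTTAC was in 2.61% of the windows, against 3.04% of all. It lay on the opposite strand 58 bases before the Smim14 start, where it reads GTAAACA. The HNF4A motif CAAAGTCCA was in 0.870%, against 0.463% of all, and the CEBP motif TTGCNNCAA was in 0 of 115, against 1.76% of all. Of the 43 windows at start sites in bins with state 4 in all 9 strains, 3 (6.98%) held the AP-1 motif. The CEBP motif was also in 3 of these 43 and the FOXA and HNF4A motifs in 0. A match describes the letters and not binding, and these shares were not tested.

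Members also lay over microRNA genes, which encode short RNAs that pair with messenger RNAs through their seed, bases 2 to 8. Of 919 autosomal hairpins in RefSeq, 26 overlapped a member bin, and members were 1.34% of all autosomal bins. A hairpin can overlap more than 1 bin, and several of the 26 lay in the same region. The count therefore does not set microRNA genes apart from other sequence. Mature sequences are shown for 3 loci, with the seed in capitals: miR-101a and miR-499, and the cluster of miR-290a and miR-292a, whose 5p arms share a seed. 
mmu-miR-101a-3p: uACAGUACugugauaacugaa
mmu-miR-101a-5p: uCAGUUAUcacagugcugaugc
mmu-miR-499-5p: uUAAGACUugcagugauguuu
mmu-miR-499-3p: gAACAUCAcagcaagucugugcu
mmu-miR-290a-5p: aCUCAAACuaugggggcacuuu
mmu-miR-292a-5p: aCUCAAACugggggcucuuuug

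The region over Mir101a, chr4:101346001-101347400, was in state 14 in A/J, C57BL/6J and NOD/ShiLtJ and in state 4 in the other 6 strains. The region over Mir290a, Mir290b, Mir292 and Mir292b, chr7:3218601-3219400, had the reverse assignment, with state 4 in A/J, C57BL/6J and NOD/ShiLtJ alone. The region over Mir499, chr2:155621201-155623000, was in state 4 in 129S1/SvImJ, A/J, C57BL/6J, NOD/ShiLtJ and NZO/HlLtJ and in state 14 in DBA/2J and the wild-derived strains.

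Member regions were short and often touched one another. The median length was 400 bp and the mean 474.1 bp. Of the 69503 regions, 34262 (49.3%) were a single bin and 972 (1.399%) had at least 10 bins. The next region touched in 33328 cases, so that regardless of pattern there were 36175 runs. Bins that switched between states 6 and 14 by the same rule had a mean region length of 232.0 bp, those that switched between 9 and 14 had 357.2 bp, and bins in state 4 in all 9 strains had 882.9 bp. These differences between kinds of bins were not tested, since bins of 1 kind are not independent.

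The strains differed in how often they were the ones with state 4. The share of member bins in state 4 was 69.6% in 129S1/SvImJ, 59.6% in C57BL/6J, 58.5% in CAST/EiJ, 53.1% in WSB/EiJ, 44.9% in DBA/2J, 41.2% in A/J, 36.2% in NZO/HlLtJ, 33.8% in NOD/ShiLtJ and 27.9% in PWK/PhJ. The 4 strains with the highest shares in members were also the 4 with the most state 4 outside members, which took 2.34% to 2.74% of autosomal bins there. PWK/PhJ was lowest in members but had 2.02% of the autosomal bins outside them in state 4, above NZO/HlLtJ (1.94%), DBA/2J (1.90%), A/J (1.77%) and NOD/ShiLtJ (1.46%). Members made up 27.5% of all state 4 bins of 129S1/SvImJ and 15.8% of those of PWK/PhJ, with a mean of 22.9% ± 3.31 (SD, n = 9 strains). The sequencing depth of the strains is unknown.

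**Figure D1:**
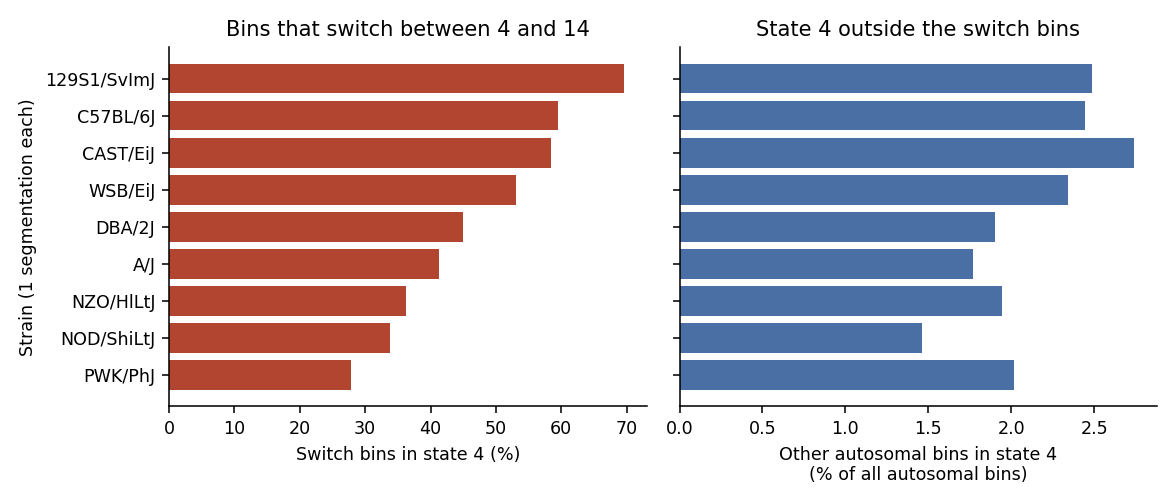
Left, percentage of the bins that switch between states 4 and 14 that were in state 4 in each strain. Right, percentage of the other autosomal bins that were in state 4, in the same strain order. The axis label on the right names all autosomal bins, but member bins are left out of the total. There is 1 segmentation per strain and no error within a strain. 129S1/SvImJ has the longest bar on the left (69.6%) and PWK/PhJ the shortest (27.9%), although 4 strains have shorter bars than PWK/PhJ on the right.

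No single grouping of strains accounted for many members. All 420 strain patterns that the rule allows were seen. The most frequent, state 4 in 129S1/SvImJ, C57BL/6J and CAST/EiJ alone, held 2493 bins (1.51%), and the 10 most frequent held 12.3% together. State 4 in all but NOD/ShiLtJ, NZO/HlLtJ and PWK/PhJ was next with 2436 bins. State 4 in CAST/EiJ, PWK/PhJ and WSB/EiJ alone held 1071 bins and ranked 25, and the opposite pattern, state 4 in the 6 laboratory strains alone, held 589 bins and ranked 86. The median pattern held 258 bins and the least frequent 9. Pairs of strains had the same state in 47.4% of member bins on average, from 37.8% for 129S1/SvImJ with PWK/PhJ to 55.2% for NZO/HlLtJ with PWK/PhJ. The rule itself keeps this share low, since it leaves out bins in which nearly all strains are alike.

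Regions close to each other had similar patterns. For regions up to 1 kb apart that did not touch, 74.5% of strains were in the same state at both regions. The share was 64.4% at 2 to 5 kb, 59.2% at 20 to 50 kb, 56.9% at 50 to 100 kb and 53.4% at 1000 to 5000 kb. The mean correlation of the 2 strain patterns, each centred on the strain shares over all members, went from 0.450 in the first of these classes to 0.0058 in the last. Region pairs share libraries and strains, so these values are a description.

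**Figure D2:**
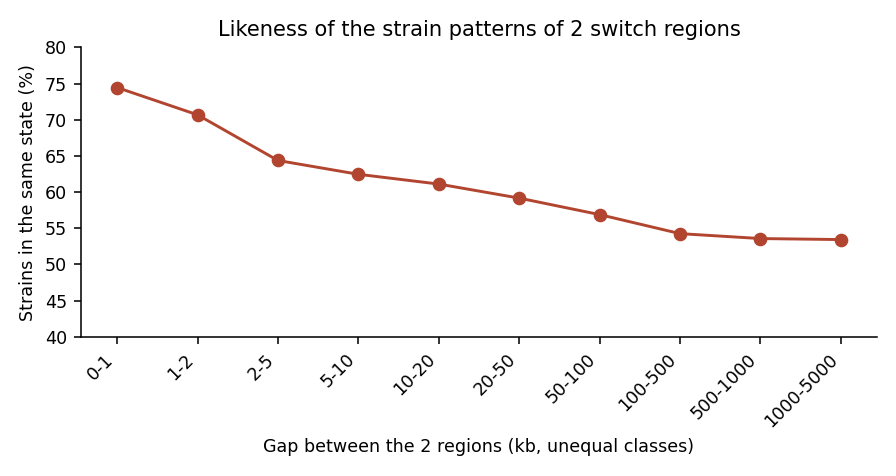
Percentage of the 9 strains that were in the same state at both regions of a pair, against the gap between the regions in kb, in unequal classes; the vertical axis starts at 40%. The share falls from 74.5% up to 1 kb to 53.4% at 1000 to 5000 kb, and most of the fall lies below 100 kb.

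Most members lay within 5 kb of chromatin that was marked in every strain, and few touched it. Marked here means any state but 14, and a marked block is a run of bins marked in at least 1 strain. Of the regions, 85.9% lay in a block that held a bin marked in all 9 strains, 2.55% touched such a bin, 43.6% were within 1 kb of one and 82.7% within 5 kb, and 2.34% were more than 20 kb away. The median distance was 1400 bp. That nearest shared bin was in state 2 for 37.2% of regions, state 4 for 31.4%, state 6 for 19.6% and state 1 for 7.34%, taking the state most strains had there. For switches between 6 and 14, 47.6% were in a block with a shared bin, 12.8% touched one and 59.4% lay within 5 kb. For switches between 9 and 14 these shares were 96.8%, 3.14% and 97.0%. A side of a region that touches another member cannot touch a shared bin. The same shares over all autosomal bins were not computed, so the values do not set members apart from bins in general. On average 33.7% ± 4.70 of a strain's state 4 segments held a member, and 17.3% ± 3.35 of these consisted of member bins alone (SD, n = 9 strains). The segments with a member had a median length of 1489 bp ± 176 (mean of the strain medians), against 600 bp for the other state 4 segments. A longer segment has more bins that can be members, so this split by itself favours long segments among those with a member.

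The chromatin around a member differed with the member's state. For each strain, flanking bins that were not members were compared between the regions that were in state 4 in that strain and those that were in state 14. Within 1 kb of the region edge, 69.5% ± 2.10 of flanking bins were marked beside regions in state 4, against 31.7% ± 2.90 beside regions in state 14 (SD, n = 9 strains). The difference was 37.7 percentage points ± 4.04 and was positive in 9 of 9 strains (exact permutation test, adjusted p = 0.00586 over 12 tests). The test here and below is a two-sided exact permutation that flips the sign of each strain's difference, and 0.0039 is the smallest unadjusted p that 9 strains allow. State 4 itself held 44.1% ± 3.52 of these bins against 13.8% ± 1.76, and states 1, 2 or 3 held 19.6% ± 1.66 against 8.51% ± 1.14. Both differences were positive in 9 of 9 strains, with the same adjusted p. Neighbouring bins are linked by the segmentation model and by the width of the ChIP signal, so the nearest window cannot be told apart from the extent of the same segment.

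The difference became smaller with distance. At 1 to 5 kb it was 10.97 percentage points ± 3.44 for all marked bins, 6.36 ± 1.94 for state 4 and 6.28 ± 2.24 for states 1, 2 or 3, each positive in 9 of 9 strains (exact permutation test, adjusted p = 0.00586). State 4 segments with a member had a median length of 1489 bp, so some can reach past 1 kb. The values for marked bins and state 4 in this window therefore cannot be fully told apart from the extent of the same segment either. At 5 to 20 kb, states 1, 2 or 3 held 23.2% ± 1.52 of the bins beside regions in state 4 against 19.9% ± 1.00 beside regions in state 14, a difference of 3.30 ± 1.89 that was positive in 9 of 9 strains (exact permutation test, adjusted p = 0.00586). The difference for all marked bins at this distance was 4.52 ± 3.22, positive in 8 of 9 (exact permutation test, adjusted p = 0.00938). At 20 to 50 kb it was 2.23 ± 2.67 for all marked bins, positive in 7 of 9 strains (exact permutation test, adjusted p = 0.043). Leaving out 1 strain at a time ended this last call in 8 of 9 cases, where the adjusted p rose to between 0.0703 and 0.0938, and NOD/ShiLtJ was the exception. State 4 at 20 to 50 kb differed by 1.22 ± 0.851, positive in 8 of 9 strains (exact permutation test, adjusted p = 0.00938), and states 1, 2 or 3 by 1.85 ± 1.69, positive in 7 of 9 (exact permutation test, adjusted p = 0.017). The call for states 1, 2 or 3 was lost without A/J or without WSB/EiJ, with an adjusted p of 0.0511 each time.

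**Figure D3:**
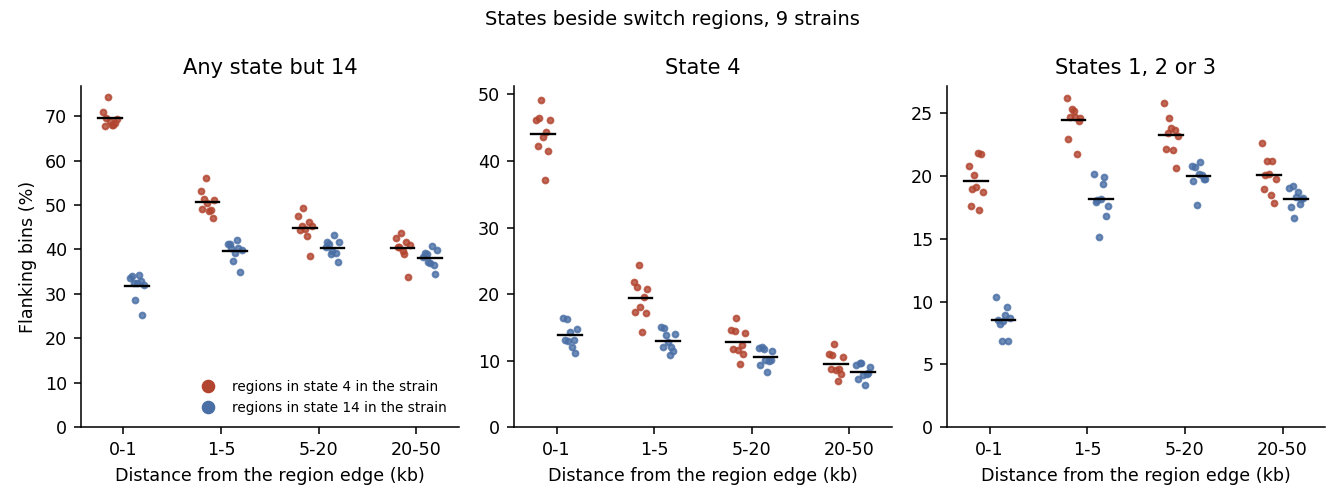
Percentage of flanking bins in any state but 14 (left), in state 4 (middle) and in state 1, 2 or 3 (right) against the distance from the region edge in kb. Each point is 1 strain and each line the mean of 9 strains, for regions in state 4 in the strain (red) and regions in state 14 (blue). In the nearest window the 2 sets of points do not overlap, with means of 69.5% and 31.7% for any state but 14, and at 20 to 50 kb they overlap in all 3 panels.

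The ends of the gene that held a member did not differ detectably with the member's state. This was tested on 30916 regions inside 4409 protein-coding genes and more than 5 kb from any gene end. Where the member was in state 4, 37.5% ± 2.65 of the bins at the ends of its gene were in state 1, 2 or 3, and where it was in state 14, 35.9% ± 1.94. The difference of 1.67 percentage points ± 4.16 was positive in 5 of 9 strains and ranged from -2.94 in NOD/ShiLtJ to 8.54 in NZO/HlLtJ (exact permutation test, adjusted p = 0.391 over 3 tests). State 13 held 3.66% ± 0.831 against 4.03% ± 0.623 of these bins (exact permutation test, adjusted p = 0.391). The share outside state 14 was 61.6% ± 2.74 against 59.4% ± 1.64, a difference of 2.21 ± 2.57 that was positive in 6 of 9 strains (exact permutation test, adjusted p = 0.164). With each state required in only 2 strains this last difference was 2.77, with an adjusted p of 0.0117.

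Members lay mainly in gene bodies and between genes. Of member bins, 4.39% were within 1 kb of an end of a protein-coding gene, 53.4% elsewhere in a gene body and 42.3% outside genes, against 3.32%, 38.1% and 58.6% of all autosomal bins. Bins in state 4 in all 9 strains gave 5.23%, 48.8% and 45.9%. Among members these shares hardly moved with the number of strains in state 4: the share in gene bodies was 53.5% with 3 strains in state 4 and 53.3% with 6. Switches between 6 and 14 lay at gene ends in 1.98% and in gene bodies in 63.4% of bins, and switches between 9 and 14 in 10.4% and 51.9%.

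Whether member bins in state 4 lay at gene ends less often than a strain's other state 4 bins depended on which other bins were taken. Against all its other state 4 bins, the mean shares at gene ends were 4.40% ± 0.735 and 5.13% ± 0.390, a difference of -0.735 percentage points ± 0.468 that was negative in 8 of 9 strains (exact permutation test, adjusted p = 0.0234 over 3 tests). The rule leaves out of the members, and so puts among the other bins, every bin in which some strain had a state other than 4 and 14. When the other bins were limited to those with states 4 and 14 alone, an alternative added after this result was seen, their share at gene ends was 4.63% ± 0.415 and the difference -0.228 ± 0.352, negative in 8 of 9 strains (exact permutation test, adjusted p = 0.135). The same bins recur in several strains, which are therefore not fully independent. Without NOD/ShiLtJ, which also changes which bins are members, the difference was -0.473 with an adjusted p of 0.211. The share in gene bodies was 53.4% ± 6.64 against 54.1% ± 3.20 (exact permutation test, adjusted p = 0.590), and the share outside genes 42.2% ± 7.33 against 40.8% ± 3.43 (exact permutation test, adjusted p = 0.481). Both differences changed sign with the limited set, where neither passed the threshold.

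NZO/HlLtJ stood apart from the other strains in where its state 4 lay. Of its member bins in state 4, 68.6% lay in gene bodies, where the range of the other 8 strains was 46.2% to 56.4%. Outside genes it had 25.3%, against 39.1% to 49.9%, and at gene ends 6.13%, against 3.86% to 4.91%. Its state 4 bins that were not members moved the same way, with 61.1% in gene bodies and 33.0% outside genes, and the other strains ranged from 38.8% to 44.4% outside genes. NZO/HlLtJ was also the only strain in which the gene-end share was higher in members than in other state 4 bins, by 0.249 percentage points.

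Close to start sites members were scarce. A member bin lay at the start site itself for 0.573% of the 20084 start sites, at 2 kb inside the gene for 0.742%, at 10 kb inside for 2.38% and at 10 kb before it for 2.18%. Of all autosomal bins 1.34% were members, so the share was below this at the start and above it at 10 kb on both sides. Bins in state 4 in all 9 strains had 0.214% at the start and 0.563% at 10 kb before it. Their share was lower still inside the gene, with 0.134% at 2 kb. Switches between 9 and 14 differed in shape, with 0.169% at the start and 4.80% at 2 kb before it.

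**Figure D4:**
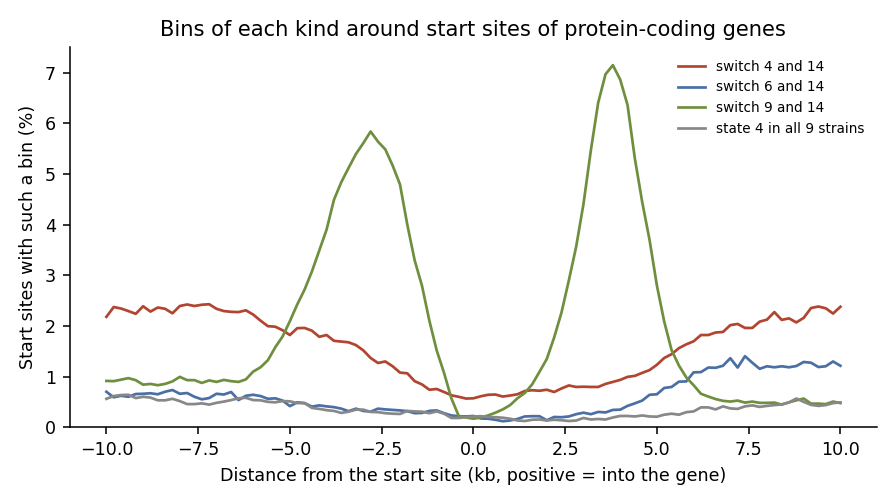
Percentage of 20084 start sites with a bin of each kind at a given distance from the start in kb, negative before the gene and positive into it. Switches between 4 and 14 (red) are low close to the start (0.573% at the start itself) and stand at 2.18% and 2.38% at 10 kb before and after it. Switches between 9 and 14 (green) have a peak on each side of the start.

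Of 20661 autosomal protein-coding genes, 6236 (30.2%) held a member bin between 1 kb before and 1 kb after the gene, 2746 held at least 10, and 2003 (9.69%) had one within 1 kb of a gene end. All genes together had 9.29 member bins per 100 kb, against 6.69 per 100 kb of autosomes. Long genes can hold more bins, and the 10 genes with most members had lengths from 202.8 to 774.7 kb. They were Arhgap26 with 373 bins, Prkce with 366, Rad51b with 326, Gse1 with 301, Rora with 285, Nav2 with 271, St3gal3 with 247, Snd1 with 237, Pitpnc1 with 220 and Fars2 with 214. Prkce encodes protein kinase C epsilon, Rad51b a protein of DNA repair by recombination, Rora a nuclear receptor of the circadian clock, and Fars2 a mitochondrial transfer RNA synthetase.

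Each of these genes had its own order of strains. In Prkce (chr17:86167785-86657919), 280 of 366 bins were in state 4 in 129S1/SvImJ, 262 in C57BL/6J, 248 in DBA/2J, 203 in WSB/EiJ, 185 in CAST/EiJ, 160 in PWK/PhJ, 112 in NZO/HlLtJ, 107 in A/J and 83 in NOD/ShiLtJ. In Rad51b (chr12:79297282-79848260), 129S1/SvImJ had 93.6% of the bins in state 4 and DBA/2J had 16.3%, while NOD/ShiLtJ, low over all members, had 61.0%. In Snd1 (chr6:28480337-28935162), which encodes an RNA-binding nuclease, CAST/EiJ had 97.0% and NOD/ShiLtJ 8.86%. In Fars2 (chr13:36117428-36537595), CAST/EiJ had 97.2%, PWK/PhJ 63.6% and NZO/HlLtJ 7.48%. In Gse1 (chr8:120228501-120581383), C57BL/6J had 91.4% and PWK/PhJ 5.32%. Arhgap26 and Prkce also held 104 and 73 bins in state 4 in all 9 strains, so bins of both kinds lay in the same gene.

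The 10 genes with the highest share of member bins were selected on that share, among genes with at least 10, and the median over all genes was 0 member bins. Arhgdib, which encodes a regulator of small GTPases in blood cells, had the highest share, with 75 of its 102 bins (73.5%). A/J, NOD/ShiLtJ and WSB/EiJ had all 75 bins in state 4, DBA/2J 63, 129S1/SvImJ 62, NZO/HlLtJ 38, PWK/PhJ 7, and C57BL/6J and CAST/EiJ 0. The longest member region, chr6:136922601-136928800 (6200 bp), lay at this gene, and the second, chr6:136947001-136952200 (5200 bp), lay 18 bp from Pde6h with the same pattern, state 14 in C57BL/6J, CAST/EiJ and PWK/PhJ. Next were chr9:45295201-45300400, with state 4 in C57BL/6J, DBA/2J and NZO/HlLtJ, chr16:95687201-95692200, with state 4 in A/J, C57BL/6J and CAST/EiJ, and chr5:64328001-64332800 in Tbc1d1, with state 14 in DBA/2J, NOD/ShiLtJ and NZO/HlLtJ. Tbc1d1 encodes a regulator of glucose transporter traffic, and 126 of its 137 member bins were in state 4 in 129S1/SvImJ and 1 in NZO/HlLtJ.

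The other 9 genes of this ranking had between 57.6% and 67.6% of their bins as members. Ctrb1, a chymotrypsinogen, had 23 member bins of 34, all in state 4 in 129S1/SvImJ, C57BL/6J, NOD/ShiLtJ and WSB/EiJ and 1 in NZO/HlLtJ. Ctrl, a chymotrypsin-like protease, had 13 of 21, all in state 4 in 129S1/SvImJ, CAST/EiJ and WSB/EiJ and none in A/J or PWK/PhJ. Clps, colipase, had 14 of 23, all in state 4 in CAST/EiJ and WSB/EiJ and none in A/J, DBA/2J or PWK/PhJ. Ccl6, a chemokine, had 25 of 37, with 23 in state 4 in 129S1/SvImJ and 0 in NOD/ShiLtJ. Aoc3, an amine oxidase of endothelial and fat cells, had 35 of 55, all in state 4 in 129S1/SvImJ and none in PWK/PhJ. Ifitm6 had 10 of 16, all in state 4 in CAST/EiJ and DBA/2J and none in 129S1/SvImJ, NOD/ShiLtJ or PWK/PhJ. Cfd, the complement factor adipsin, had 12 of 20, all in state 4 in 129S1/SvImJ, C57BL/6J and NZO/HlLtJ. Sftpb, a lung surfactant protein, had 34 of 59, all in state 4 in NOD/ShiLtJ, 33 in WSB/EiJ, 1 in NZO/HlLtJ and 0 in PWK/PhJ. Cyp21a1, steroid 21-hydroxylase, had 18 of 27, all in state 4 in CAST/EiJ, DBA/2J and WSB/EiJ and none in 129S1/SvImJ or A/J. A gene close to a segmental copy, as Cyp21a1 is, can share reads with the copy, and how such reads were placed is not given in the sources used here.

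**Figure D5:**
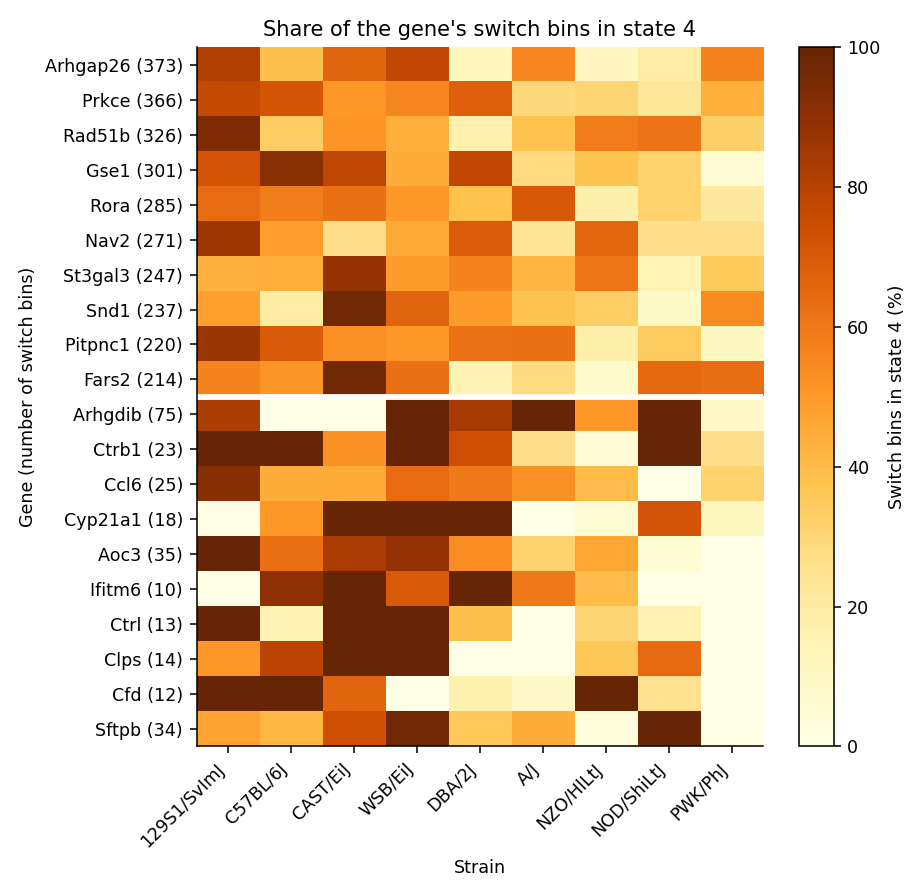
Percentage of a gene's member bins that were in state 4 in each strain, on a colour scale from 0 to 100%. Above the white line are the 10 genes with most members and below it the 10 with the highest share of member bins, with the number of member bins in brackets; strains are ordered by their share over all members. The dark cells move from strain to strain between genes: Snd1 and Fars2 are darkest in CAST/EiJ, and Arhgdib is at 0 in C57BL/6J and CAST/EiJ.

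The 10 genes with most member bins within 1 kb of their ends were Ccl6 with 21, Aoc3 and Nr3c1 with 17, Arhgdib, Serpina3f and Tmem54 with 16, Dhx32 and Rgs14 with 15, and Prf1 and Sectm1a with 14. Prf1, which encodes perforin of killer lymphocytes, had 23 member bins in all, with all 23 in state 4 in 129S1/SvImJ, NOD/ShiLtJ and WSB/EiJ and none in CAST/EiJ or PWK/PhJ. In Nr3c1, the glucocorticoid receptor, 25 of 34 member bins were in state 4 in 129S1/SvImJ and 1 in DBA/2J. In Serpina3f, a serine protease inhibitor, all 25 were in state 4 in NOD/ShiLtJ and none in 129S1/SvImJ. Tmem54 had 19, all in state 4 in A/J, C57BL/6J and DBA/2J and none in CAST/EiJ, NOD/ShiLtJ or NZO/HlLtJ. Dhx32, an RNA helicase, had 31, all in state 4 in NZO/HlLtJ and none in CAST/EiJ.

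Hepatocyte markers seldom held members, and genes of several metabolic pathways did so more often than the 30.2% of all genes, as a description without a test. Of 20 hepatocyte markers, Cps1, a urea cycle enzyme, with 12 bins, and F2, prothrombin, with 5 were the ones that held any, and together the list had 4.28 member bins per 100 kb. The gene-end share of state 4 in this list was 16.9% ± 2.50 (SD, n = 9 strains), so state 4 was present there but seldom as a member. Of 20 neuronal genes 3 held members, at 0.961 bins per 100 kb. The median length was 295.2 kb for the neuronal genes and 12.2 kb for the hepatocyte markers.

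Of 24 fatty acid and triglyceride genes, 13 (54.2%) held members, against 30.2% of all genes. Over the list this was 38.2 bins per 100 kb, to which Lpin1 gave 140 of 581 bins, and the median over its genes was 12.3 per 100 kb, where that of all genes was 0. Lpin1, a phosphatidate phosphatase, had 140 of its 602 bins as members, all in state 4 in 129S1/SvImJ, 134 in CAST/EiJ, 102 in NOD/ShiLtJ, 85 in C57BL/6J, 66 in PWK/PhJ, 37 in A/J and in NZO/HlLtJ, 13 in WSB/EiJ and 2 in DBA/2J. Acaca, acetyl-CoA carboxylase alpha, had 101, with 90 in state 4 in 129S1/SvImJ and 3 in NOD/ShiLtJ. Elovl6, a fatty acid elongase, had 64, from 51 in C57BL/6J to 2 in NOD/ShiLtJ. Cpt1a, the gate of mitochondrial fatty acid oxidation, had 48, from 44 in NZO/HlLtJ to 1 in WSB/EiJ. NOD/ShiLtJ thus had most of the Lpin1 members in state 4 and few of those in Acaca and Elovl6.

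Bile acid and cholesterol genes held members in 9 of 20, where 30.2% of all genes did. Summed over the list this was 30.1 bins per 100 kb, against 9.29 for all genes, and the median gene had 0. Abcb11, the bile salt export pump, had 60 member bins, with all of them in state 4 in 129S1/SvImJ, 50 in PWK/PhJ and 0 in A/J. Srebf2, a regulator of cholesterol synthesis, had 53, with 47 in 129S1/SvImJ and in CAST/EiJ and 0 in PWK/PhJ. Scarb1, the high-density lipoprotein receptor, had 34, all in state 4 in 129S1/SvImJ, CAST/EiJ, DBA/2J and WSB/EiJ and 0 in C57BL/6J. Abcb4, a phospholipid exporter, had 38, all in state 4 in 129S1/SvImJ and 8 in A/J.

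Of the genes of glucose and insulin action, 9 of 20 held members, where 30.2% of all genes did. Summed over the list this was 10.1 bins per 100 kb, close to the 9.29 of all genes, and the median gene had 0. Ppargc1a, a transcriptional coactivator of fasting metabolism, had 31, with 31 in state 4 in 129S1/SvImJ and 3 in NZO/HlLtJ and in PWK/PhJ. Insr, the insulin receptor, had 28, with 23 in 129S1/SvImJ, C57BL/6J and NZO/HlLtJ and 1 in A/J. Lepr, the leptin receptor, had 23, with 23 in CAST/EiJ and PWK/PhJ and 0 in NZO/HlLtJ. Of drug metabolism genes 7 of 20 (35.0%) held members, near the 30.2% of all genes. Summed over the list this was 11.3 bins per 100 kb, against 9.29 for all genes, and the median gene had 0. Nr1i2, the xenobiotic sensor PXR, had 8, with 0 in state 4 in NOD/ShiLtJ, PWK/PhJ and WSB/EiJ, 1 in DBA/2J and all 8 in the other 5 strains. Ahr, the aryl hydrocarbon receptor, had 16, all in state 4 in CAST/EiJ and NZO/HlLtJ and 0 in WSB/EiJ.

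Of 20 liver transcription factors, 8 held a member, where 30.2% of all genes did, and 1 had one at a gene end, where 9.69% of all genes did. The list had 24.4 member bins per 100 kb when summed, and its median gene had 0. Zhx2, a repressor of fetal liver genes, had 65 member bins, Tcf7l2, a Wnt effector, had 60, Stat5b, a growth hormone effector, had 48 and Nr5a2, a nuclear receptor of bile acid metabolism, had 43. In Stat5b, 48 bins were in state 4 in NZO/HlLtJ, 47 in 129S1/SvImJ and in CAST/EiJ, and 0 in PWK/PhJ. In Nr5a2, all 43 were in state 4 in 129S1/SvImJ and 0 in DBA/2J and WSB/EiJ. Of 18 circadian clock genes, 12 (66.7%) held members, at 27.2 per 100 kb, and 4 had one at a gene end. Rora gave 285 of the 420 member bins of this list, and the median over its genes was 11.9 per 100 kb. Per1, a core repressor of the clock, had 36, all in state 4 in 129S1/SvImJ and DBA/2J and 0 in NOD/ShiLtJ and PWK/PhJ. Arntl, its activator, had 20, all in state 4 in C57BL/6J and 0 in DBA/2J and NOD/ShiLtJ.

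Markers of other liver cells held members to different degrees. Of 15 endothelial markers, 9 (60.0%) held members, where 30.2% of all genes did. Summed over the list this was 22.4 bins per 100 kb, against 9.29 for all genes. The median gene had 20.6 per 100 kb, where that of all genes was 0. A member lay at a gene end in 5 of the 15, where 9.69% of all genes had one. The median length of these markers was above the 12.2 kb of the hepatocyte markers, and long genes can hold more bins. Whether gene length accounts for the higher share was not tested. Stab2, a scavenger receptor of sinusoidal endothelium, had 110 member bins, with 108 in state 4 in CAST/EiJ, 83 in WSB/EiJ, 80 in A/J, 56 in 129S1/SvImJ, 32 in DBA/2J and in NOD/ShiLtJ, 25 in NZO/HlLtJ, 8 in PWK/PhJ and 7 in C57BL/6J. Vwf, von Willebrand factor, had 28, from 25 in C57BL/6J to 1 in NZO/HlLtJ. Pecam1, an adhesion protein of endothelial junctions, had 22, all in state 4 in C57BL/6J and 0 in CAST/EiJ. Eng had 30, from 25 in 129S1/SvImJ and in DBA/2J to 5 in WSB/EiJ. The order of strains thus differed between these 4 endothelial genes: C57BL/6J was highest in Vwf and Pecam1 and lowest in Stab2.

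Of 15 lymphocyte markers, 3 held members, where 30.2% of all genes did. Summed over the list this was 19.4 bins per 100 kb, against 9.29 for all genes, and the median gene had 0. Cd4 and Il2rb gave 29 bins each to the 60 member bins of this list. Of 14 stellate cell and fibroblast markers, 2 held members, at 2.84 per 100 kb. Of 11 Kupffer cell and macrophage markers, 1 did, Csf1r, at 2.97 per 100 kb. The differences between lists were not tested. Il2rb, an interleukin receptor subunit, had 29 member bins, all in state 4 in C57BL/6J and none in NZO/HlLtJ and PWK/PhJ. Cd4, the co-receptor of helper T cells, had 29, all in state 4 in NOD/ShiLtJ and 0 in PWK/PhJ. Whether other cell types in the samples had a part in the members at these genes was not tested.

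Members clustered in some parts of the genome. Of 2473 windows of 1 Mb, the median held 36 member bins and 506 held none. The densest had 539 of 5000 bins and held Arhgap26 and Fgf1. Next was chr17:86000001-87000000 with 517, which holds Prkce and Epas1, a hypoxia-inducible factor. Then came chr15:77000001-78000000 with 514, which holds Myh9, a nonmuscle myosin, chr13:52000001-53000000 with 453 and chr17:31000001-32000000 with 450. State 4 itself was frequent in these 5 windows, with a mean of 652.0 to 927.0 of 5000 bins, where it covered 2.73% of autosomal bins on average. Whether members clustered beyond state 4 itself was not tested. In the window on chromosome 13, with Auh, an RNA-binding enoyl-CoA hydratase, and Nfil3, a transcription factor of the clock, 88.7% of member bins were in state 4 in CAST/EiJ, 69.5% in A/J, 10.8% in NZO/HlLtJ and 4.64% in PWK/PhJ. Epas1 had 78 member bins, all in state 4 in 129S1/SvImJ, 68 in DBA/2J and 3 in C57BL/6J.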

How the data were processed

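H3K4me1, H3K4me3, H3K27ac, H3K27me3 and input libraries of 9 strains were grouped by the strain in their labels. The authors deposited 1 segmentation per strain, in which the mice of the strain are combined. Per the file headers each belongs to 1 strain's hepatocytes, and column 4 is a category, the state number, with no count, signal or score. The depth is unknown, so no counting interval is given. The build is mm10, and FastQC 0.11.5 and MACS 1.4.2 are named, per the submitters' processing notes, without their role. The aligner and segmentation tool are not given in the sources used here.

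Segments were written as states of 200-bp bins, and members were found on all autosomes with Python 3.11.15, numpy 2.4.6 and pandas 2.3.3. Members were selected on the deposited states, and the members and gene lists were chosen with earlier results of these data known. Genes (20661 protein-coding) and start sites came from RefSeq tables of GRCm38.p6. Of 228 listed genes, 227 were found on autosomes. Motifs were searched on both strands in 300 bases.

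Each strain gave 1 value per test. Differences were tested by flipping the sign of each strain's value in all 512 ways (exact permutation, two-sided) and adjusted by the Benjamini-Hochberg method over 12, 3 and 3 tests, with a threshold of 0.05. The spread is between strains, which share ancestry, and says nothing of mice within a strain. Planted differences and switch bins were recovered on simulated data. Named genes are those with most member bins, with the highest share (at least 10 member bins) and with most at gene ends (10 each), up to 4 per list by member bins, and those at the 5 longest regions and in the 5 densest windows. A few genes that this rule names are not reported here. Start sites and hairpins shown were chosen after their values were seen. Alternatives changed the number of strains required, region length, strains, gene windows and gene sets, and flank values centred on the region mean. Using start sites in place of both gene ends, and limiting the other state 4 bins to those with states 4 and 14 alone, were added after seeing the data.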

Additional observations from a re-analysis of the deposited data

Results flagged for a closer look

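Of 59 sets of 9 strain values, 9 had a strain at 1 end whose gap to the next strain was larger, relative to the range, than the 95% limit for 9 values. Chance gives about 1 in 20, which is 2.95 of 59, and several sets hold the same bins.

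For NZO/HlLtJ, 68.6% of member bins in state 4 lay in gene bodies (other strains 46.2% to 56.4%), 25.3% outside genes (39.1% to 49.9%) and 6.13% at gene ends (3.86% to 4.91%). Its other state 4 bins lay outside genes in 33.0% (38.8% to 44.4%).

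For CAST/EiJ, 74.3% of the bins within 1 kb of regions in state 4 were marked (67.7% to 71.0% elsewhere), and the difference between regions in state 4 and state 14 at 1 to 5 kb was 18.6 percentage points (6.57 to 12.1 elsewhere). At 5 to 20 kb from its regions in state 14, 17.7% of bins were in state 1, 2 or 3 (19.6% to 21.1% elsewhere).

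For PWK/PhJ, 33.8% of the bins 20 to 50 kb from regions in state 4 were marked (39.1% to 43.6% elsewhere). At the ends of genes whose member was in state 14, 55.5% of its bins were marked (58.3% to 60.9% elsewhere).

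Chromosome X, which the rule leaves out, also held such bins. The same rule gave 349 bins in 85 regions, 0.0408% of its bins against 1.34% of autosomal bins. State 4 covered 0.0666% of X on average against 2.73% of the autosomes.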

How the results depend on the processing

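Of 255 alternative values of the tested results, 238 kept their direction and side of the threshold. With each state in at least 2 strains there were 280781 member bins in 112720 regions, and with at least 4 strains 77104 in 33176. Leaving out single bins left 35241 regions, and merging touching members whatever their pattern gave 36175. With all annotated genes, 9430 held a member. With at least 4 strains, the differences at 20 to 50 kb were 2.01 for marked bins (adjusted p = 0.0703) and 1.37 for states 1, 2 or 3 (adjusted p = 0.0639), by the exact permutation test. With at least 2 strains, the gene-end difference outside state 14 was 2.77 (exact permutation test, adjusted p = 0.0117). Leaving out each strain in turn, marked bins at 20 to 50 kb ranged from 1.88 to 2.17, states 1, 2 or 3 there from 1.52 to 1.76, and the gene-end position difference from -0.728 to -0.473, its weakest without NOD/ShiLtJ. With the other state 4 bins limited to bins with states 4 and 14 alone (added after seeing the data), the position differences were -0.228 at gene ends (adjusted p = 0.135), 1.76 in gene bodies and -1.53 outside genes, the last 2 with the sign reversed, by the exact permutation test. Here the alternative compares fewer bins, and otherwise the cause was not tested. With 8 strains the smallest p is 0.0078. No paired analysis was possible because the libraries of a strain are combined in 1 segmentation, and the labels do not say whether mouse numbers link mice of different strains.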

Other observations

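Members were spread over all autosomes, with the share of bins from 0.910% on chromosome 3 to 1.89% on chromosome 19. The same chromosomes had the lowest and the highest mean share of state 4, 1.87% and 4.01%.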
